A study of Mus musculus with 10 samples.

Results

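The 10 integrin subunits described here were chosen by gene symbol: Itgae, Itgb7, Itga4, Itgb1, Itgal, Itgb2, Itga6, Itgb3, Itga2 and Itgb5, which are 10 of the 55809 gene rows of the count files. They were measured by RNA-seq in regulatory T (Treg) cells of mouse spleen and lymph nodes. Every mouse carried Foxp3-AID, an altered endogenous Foxp3 allele whose protein product bears an auxin-inducible degron, with a ZsGreen reporter and Cre recombinase from the same locus, so that Cre acts wherever Foxp3 is expressed. The mice of the 4 R26-WT libraries had a wild-type ROSA26 locus, and those of the 6 R26-TIR1(F74G) libraries carried there a TIR1(F74G)-mCherry transgene behind a stop cassette that Cre removes. TIR1(F74G) is the ligase adaptor that recognizes the degron once the auxin analogue 5-ph-IAA is given, and both groups received 5-ph-IAA for 14 days, so the control mice carried the same fusion allele and the same drug. The labels give neither the age nor the sex of these mice (the file headers name a folder for males), and where the general sorting scheme of the study was used, cells with TIR1 were also gated on mCherry, so the gate and the genotype cannot be told apart. Each library was 1 labelled replicate, and no label says whether 1 library was 1 mouse.

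Integrins are adhesion receptors built of 1 α and 1 β subunit, each crossing the membrane once. T cells use them to stop on vessel walls, to enter tissue and to hold on to other cells, and the pairing of subunits sets the ligand. Itgal pairs with Itgb2 to form LFA-1, which binds ICAMs. Itga4 pairs with Itgb7, the gut-homing receptor for MAdCAM-1, or with Itgb1 to form VLA-4, which binds VCAM-1 and fibronectin. Itgae (CD103) pairs with Itgb7 and binds E-cadherin on epithelium, and marks a share of Treg cells in lymphoid organs and at barriers. Itga6 and Itga2 pair with Itgb1 as receptors for laminin and collagen, and Itgb3 and Itgb5 pair with Itgav as receptors for vitronectin.

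The table of RefSeq promoter windows (build GRCm38.p6, 250 bases before to 50 after a gene's start) held 5 of the 10 subunits: Itgb7, Itga4, Itgb1, Itga2 and Itgb5. Those of Itgb7, the most abundant subunit, of Itga4, its α partner, and of Itgb1, the subunit with the lowest p-value, are shown because the comparison asks how loss of Foxp3, a forkhead transcription factor, moved these genes. Letters matching the RUNX motif TGTGGT or the forkhead motif TGTTTAC on either strand are in capitals. They lie on chr15:102231886-102232185 (minus strand), chr2:79255176-79255475 (plus strand) and chr8:128685404-128685703 (plus strand).
Itgb7: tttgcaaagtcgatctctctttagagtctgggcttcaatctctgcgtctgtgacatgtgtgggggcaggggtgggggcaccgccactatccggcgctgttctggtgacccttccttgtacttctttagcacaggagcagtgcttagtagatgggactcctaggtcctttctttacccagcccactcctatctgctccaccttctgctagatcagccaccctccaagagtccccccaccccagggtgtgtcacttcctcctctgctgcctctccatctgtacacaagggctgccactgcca
Itga4: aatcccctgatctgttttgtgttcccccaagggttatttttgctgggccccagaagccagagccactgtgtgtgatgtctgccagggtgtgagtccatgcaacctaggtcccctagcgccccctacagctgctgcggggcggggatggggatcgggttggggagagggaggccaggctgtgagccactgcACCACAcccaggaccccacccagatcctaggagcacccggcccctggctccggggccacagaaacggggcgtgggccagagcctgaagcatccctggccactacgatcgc
Itgb1: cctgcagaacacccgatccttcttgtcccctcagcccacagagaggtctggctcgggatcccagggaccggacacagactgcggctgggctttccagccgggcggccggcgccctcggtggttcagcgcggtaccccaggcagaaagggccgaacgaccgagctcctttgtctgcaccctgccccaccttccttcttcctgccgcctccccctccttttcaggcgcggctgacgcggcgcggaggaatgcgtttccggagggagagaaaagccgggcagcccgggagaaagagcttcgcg
The forkhead letters were in 0 of the 5 windows, against 3.65% of all 32851 windows in the table. The RUNX letters were in 1 of the 5, that of Itga4, against 16.8% of all windows. A match or its absence in such a window is a description only.

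Total counts ran from 44929734 to 54795718 in R26-WT and from 24158699 to 49333756 in R26-TIR1(F74G) libraries, and the R26-WT mean was higher (exact permutation test over 210 splits, two-sided p = 0.0476). All 8 markers of Treg and CD4 T cells were expressed enough to be tested, with a summed level of 4305 to 4741 counts per 1000000 counts (CPM) in R26-WT and 4161 to 4562 in R26-TIR1(F74G). The degron removes the protein, and the Foxp3 transcript, which does not check the labels, differed by 0.07 (SE 0.25) on the log2 scale. It stood at 6816 to 11779 normalized counts in R26-WT, at 16059 in R26-TIR1(F74G) replicate 7 and at 6778 to 9851 in the rest of that group, and the sign turned without R26-TIR1(F74G) replicate 7 (-0.15), without R26-WT replicate 3 (-0.03) or 4 (-0.02) and with 1 surrogate variable (-0.10). Of 16363 genes tested with DESeq2, 284 passed an adjusted p of 0.05 (229 higher and 55 lower in R26-TIR1(F74G)), which is 1.74% of those tested, and edgeR called 61, or 0.373%. Summed proliferation markers were 35.1 to 72.5 CPM in R26-WT and 116 to 264 CPM in R26-TIR1(F74G), and 10 of the 12 were called higher with DESeq2 and 4 with edgeR. In bulk RNA, fewer cells that express a gene and less RNA in each cannot be told apart.

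None of the 10 integrin subunits was called different between the groups, although all of them were tested. The 0 of 10 stands against 1.74% called over all tested genes with DESeq2, and with edgeR 0 of 10 stands against 0.373%. Only Itgb1 had an unadjusted p below 0.05, which is 1 of 10 where 6.86% of all tested genes had one with DESeq2. In 0 of the 10 did the normalized counts of the groups separate completely, against 2.37% of all tested genes. The log2 fold change was positive for 8 and negative for 2, with a median of 0.12 against a median of 0.000627 over all tested genes. That split rested on single libraries, since it was 5 to 5 without R26-WT replicate 3 (median 0.0075), without R26-WT replicate 4 (0.02) or without R26-TIR1(F74G) replicate 7 (0.00145), and also 5 to 5 with 1 surrogate variable (0.04).

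**Figure D1:**
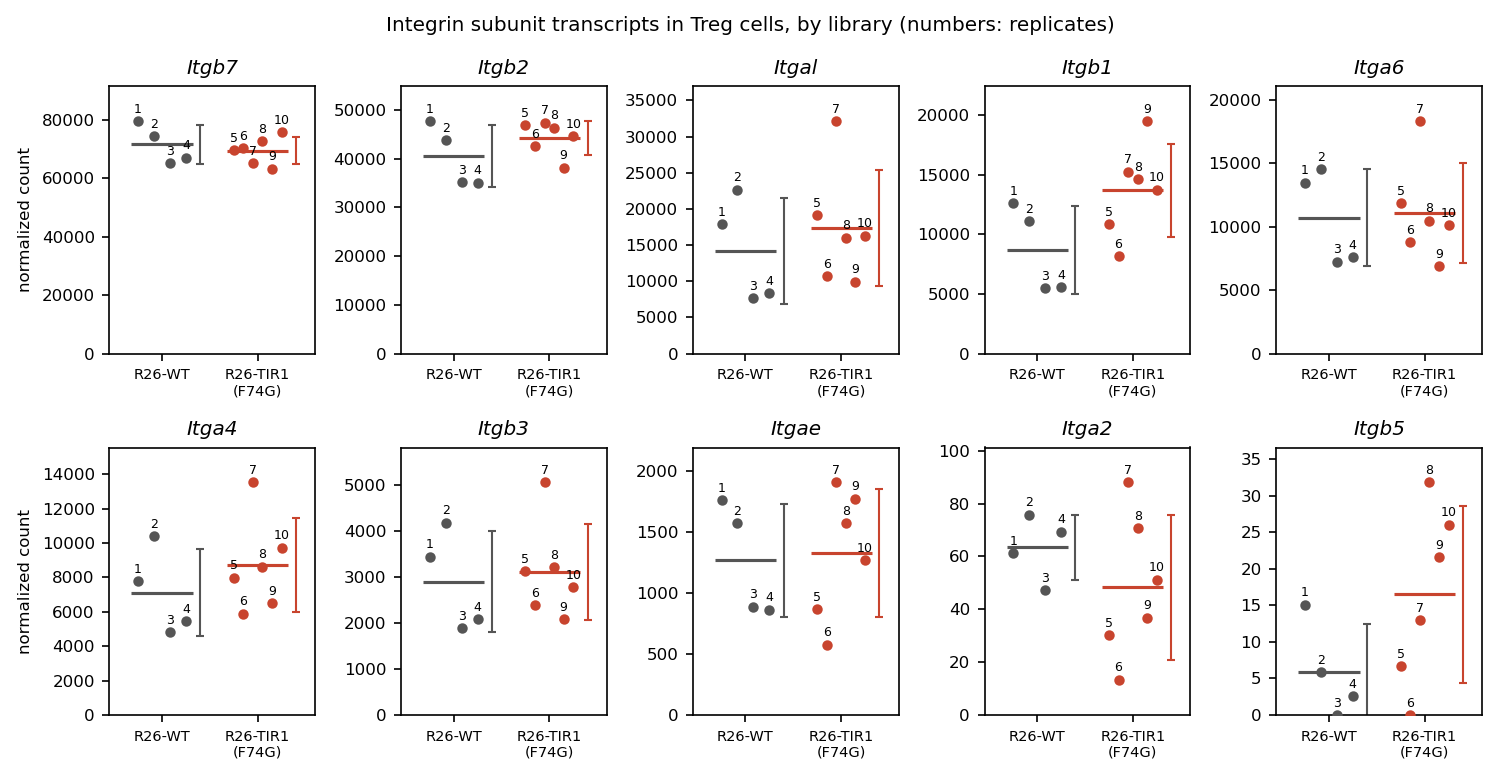
Normalized counts (linear axes from 0) of each integrin subunit in the 4 R26-WT (grey) and 6 R26-TIR1(F74G) (red) libraries, with replicate numbers, horizontal lines at the group means and bars of 1 SD. The groups overlapped for every subunit, and R26-WT replicates 1 and 2 were the higher pair for 9 of the 10.

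The per-length level sets the order of the subunits (counts per kb of exon, scaled so that each library sums to 1000000, written here as TPM). Itgb7 stood first in both groups, with 1750 ± 298 TPM in the 4 R26-WT libraries (mean ± SD, as for all levels that follow) and 1750 ± 156 TPM in the 6 R26-TIR1(F74G) libraries. Itgb2 came next at 901 ± 209 and 1020 ± 136, and the ranges of these neighbours did not meet in either group. After a step of 6.03-fold in R26-WT, Itgal (149 ± 87.9 in R26-WT and 189 ± 101 in R26-TIR1(F74G)) and Itgb1 (147 ± 72.3 and 235 ± 67.3) were not separable, since Itgal was the higher in only 1 of 4 R26-WT libraries and Itgb1 in 4 of 6 R26-TIR1(F74G) libraries. Itga6 followed at 80.5 ± 34.8 and 86.1 ± 36.6. Exon length here is the union of all annotated exons, and with the length of the canonical transcript in its place Itga6 stood at 125 TPM and Itgb1 at 89.8 TPM in R26-WT, so that the order of these subunits in R26-WT turned, while in R26-TIR1(F74G) Itgb1 stayed above Itga6 at 144 against 134 TPM. Itgal was then above Itgb1 in both groups, at 141 TPM in R26-WT and 178 TPM in R26-TIR1(F74G).

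Itga4 stood at 35.0 ± 15.1 TPM in R26-WT and 44.2 ± 16.9 TPM in R26-TIR1(F74G), and Itgb3 at 33.8 ± 15.4 and 37.4 ± 15.2 TPM. Itga4 was the higher of the pair in 3 of 4 and 6 of 6 libraries, with ranges that overlapped. Itgae stood below them at 19.0 ± 8.25 and 20.5 ± 8.66 TPM. A step of 31.6-fold in R26-WT then led to Itga2, at 0.603 ± 0.151 and 0.486 ± 0.301, and Itgb5 was last at 0.117 ± 0.133 and 0.328 ± 0.238, where the R26-WT level was 0.0556 without R26-WT replicate 1. The subunits that carry the known leukocyte integrins thus had ample counts, but not all varied little between libraries. The coefficient of variation within R26-WT was 9.39% for Itgb7 and 15.7% for Itgb2. It was 35.5% for Itga4, 36.5% for Itgae, 42.7% for Itgb1 and 52.0% for Itgal. The collagen receptor subunit Itga2 and the vitronectin receptor subunit Itgb5 were near the lower limit, with 13 to 95 and 0 to 30 raw counts per library.

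**Figure D2:**
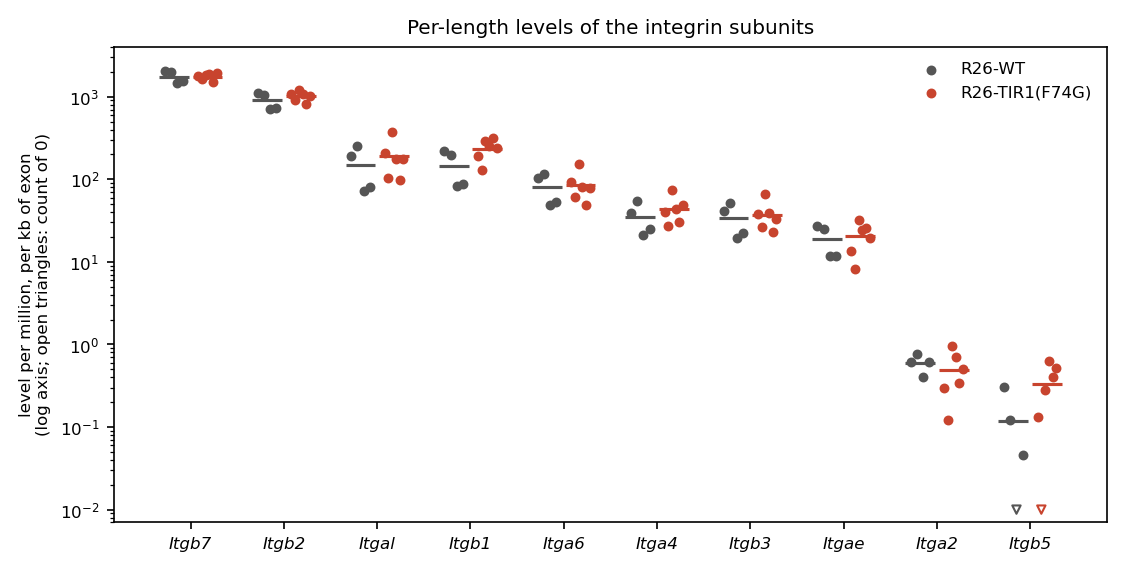
Per-length levels (log axis) of the 10 subunits by library, R26-WT in grey and R26-TIR1(F74G) in red, with lines at the group means and open triangles for libraries with a count of 0. From Itgb7 at 1750 TPM to Itgb5 at 0.117 in R26-WT, the order by union exon length was the same in both groups except that Itgal and Itgb1 changed places.

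The 10 subunits held 99.2% ± 0.153 (SD, n = 4) of the summed per-length level of all 26 integrin subunit rows in R26-WT, and 99.2% ± 0.187 (SD, n = 6) of it in R26-TIR1(F74G). Summed over all rows, the β subunits exceeded the α subunits 10.4-fold ± 3.2 in R26-WT and 9.36-fold ± 2.7 in R26-TIR1(F74G). The sizes of this fold and of the partner ratios depend on the length used, here the union of exons. The union exceeded the canonical transcript for Itgal (6569 against 5233 bases), Itga4 (13978 against 9951) and Itga6 (9142 against 4413). It was close to it for Itgb7 (2770 against 2683) and Itgb2 (3052 against 2970). For Itgb1 (4081 against 5011) and Itgae (4581 against 5490) it was shorter. Against Itgb7, its β partner, Itgae stood at 1.05 ± 0.293 per 100 in R26-WT and 1.17 ± 0.509 per 100 in R26-TIR1(F74G). Itga4, the other partner of Itgb7, stood at 1.94 ± 0.58 and 2.49 ± 0.847 per 100, and this difference of 0.55 was 0.227 without R26-TIR1(F74G) replicate 7. For LFA-1, Itgal stood at 15.6 ± 6.45 per 100 of Itgb2 in R26-WT and 17.9 ± 7.28 in R26-TIR1(F74G). Without R26-TIR1(F74G) replicate 7 this difference of 2.25 turned to -0.483, and that of Itgae per 100 of Itgb7 from 0.119 to -0.000135. These are transcript ratios, and surface pairs were not measured.

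Shares and partner ratios were compared by an exact two-sided permutation test over 210 splits, with 16 quantities compared and chosen after the values were seen. No quantity passed after adjustment (lowest adjusted p = 0.267). Before adjustment 2 had a p below 0.05, and both involved an abundant β subunit. The share of Itgb7 in the β subunit level was 62.1% ± 2.54 in R26-WT and 57.6% ± 2.43 in R26-TIR1(F74G) (exact permutation p = 0.0238). Itga6 per 100 of Itgb1 was 56.4 ± 5.98 in R26-WT, from 47.6 to 60.9, and 38.4 ± 14.2 in R26-TIR1(F74G), from 15.7 to 53.6 (exact permutation p = 0.0429). This difference was -18.0 with union exon lengths and -45.8 with canonical transcript lengths. The change of length multiplies the ratio of every library by the same factor. It therefore alters the scale, and neither the relative difference nor the permutation p. The share of Itgb1 was 4.95% ± 1.51 and 7.74% ± 2.39 (exact permutation p = 0.0667, adjusted p = 0.267).

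Itgb1, the β subunit common to the VLA integrins, had the largest difference of the abundant subunits (chr8:129412135-129459681, plus strand, GRCm39, exon length 4081 bases). Its normalized counts were 12618, 11092, 5478 and 5569 in R26-WT replicates 1 to 4, and in the 6 R26-TIR1(F74G) libraries the lowest was 8175, the median 14187 and the highest 19526. R26-TIR1(F74G) replicates 7, 8, 9 and 10 lay above all R26-WT libraries, and replicates 5 and 6 lay among them. The log2 fold change was 0.66 (SE 0.28, 95% interval 0.10 to 1.21), with an unadjusted p of 0.0203 and an adjusted p of 0.448 with DESeq2 and 0.709 with edgeR. In the order of all tested genes by unadjusted p, Itgb1 was number 739. Without R26-WT replicate 3 the value was 0.49 (adjusted p = 1 with DESeq2) and without R26-WT replicate 4 it was 0.50 (adjusted p = 1), while without R26-WT replicate 1 it was 0.89 (adjusted p = 0.119).

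The highest Itgb1 count was in R26-TIR1(F74G) replicate 9. In that library the summed activated Treg markers were 659 CPM, where the rest of its group had 405 to 471 CPM and R26-WT had 449 to 498 CPM, and whether activated cells had a part in the Itgb1 value was not tested. Without that library the log2 fold change of Itgb1 was 0.53 (adjusted p = 0.744 with DESeq2). The summed level of the proliferation markers was higher in every R26-TIR1(F74G) library than in every R26-WT library, with 7 of the 12 genes not overlapping between the groups on their own (2.37% over all tested genes), and their part in the Itgb1 value was not tested either.

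Itgae (chr11:72981409-73038272, plus strand, GRCm39, exon length 4581 bases) differed more between libraries of 1 group than between groups. Its normalized counts were 1757, 1569, 886 and 861 in R26-WT replicates 1 to 4, and from 576 through a median of 1420 to 1904 in R26-TIR1(F74G). Replicate 6 lay below all R26-WT libraries, and replicates 7 and 9 lay above them. The log2 fold change was 0.06 (SE 0.32, 95% interval -0.57 to 0.69) with an adjusted p of 0.99996 with DESeq2. In fold, that interval runs from 0.675 to 1.62, so a 2-fold change in either direction was outside it.

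The genes whose library pattern was most like that of Itgae were taken by Pearson's r of variance-stabilized counts over the 10 libraries, after group means were removed, among 12617 genes with a mean normalized count of at least 50. They were Xylt1, a xylosyltransferase of proteoglycan synthesis (r = 0.972, Spearman's rho 0.976), Myo1f, a myosin of leukocytes (r = 0.958, rho 0.988), and Pnisr (r = 0.953, rho 0.794). Without the 2 libraries farthest from the median of Itgae, r was 0.945, 0.948 and 0.896. Among the other subunits Itgb1 ranked highest, at place 8 (r = 0.928, rho 0.879), while Itgb7, the only β partner of Itgae, had r = 0.166 and rho 0.176. These values are across 10 libraries that differ in depth and length composition, and are a description of them.

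Itgb7 and Itgb2 were the most precisely measured. Itgb7 (chr15:102124430-102140379, minus strand, GRCm39, exon length 2770 bases) had normalized counts of 79669, 74477, 65163 and 67034 in R26-WT replicates 1 to 4, and of 63364 at the lowest, 69960 at the median and 75695 at the highest in R26-TIR1(F74G). Only R26-TIR1(F74G) replicate 9 lay outside the R26-WT range, below it. Its log2 fold change was -0.04 (SE 0.10) with a 95% interval in fold of 0.849 to 1.11. Itgb2, the β chain of LFA-1 (chr10:77366086-77401542, plus strand, GRCm39, exon length 3052 bases), had 47753, 43808, 35213 and 35099 in R26-WT and from 38166 through 45492 to 47387 in R26-TIR1(F74G). No R26-TIR1(F74G) library lay outside the R26-WT range, and the log2 fold change was 0.13 (SE 0.13), with an interval in fold of 0.924 to 1.3.

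Itgal, Itga4, Itga6 and Itgb3 followed a common pattern across libraries. Itgal, the α chain of LFA-1 (chr7:126895432-126934310, plus strand, GRCm39, exon length 6569 bases), had normalized counts of 17853, 22647, 7652 and 8350 in R26-WT replicates 1 to 4 and from 9916 through 16164 to 32178 in R26-TIR1(F74G). Itga4 (chr2:79085770-79163467, plus strand, GRCm39, exon length 13978 bases) had 7781, 10386, 4829 and 5452 in R26-WT and from 5889 through 8301 to 13525 in R26-TIR1(F74G). In both genes R26-WT replicates 1 and 2 lay above replicates 3 and 4, and R26-TIR1(F74G) replicate 7 was the highest of the 10 libraries. The counting options named no strand and no sharing of reads between genes, and 8.04% of the Itga4 exon bases overlap Cerkl on the opposite strand, where read pairs may have been left out of the Itga4 count.

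Itga6, the laminin receptor α chain (chr2:71575960-71688760, plus strand, GRCm39, exon length 9142 bases), had 13457, 14513, 7222 and 7594 in R26-WT and from 6874 through 10288 to 18317 in R26-TIR1(F74G). Itgb3, a β chain of vitronectin receptors (chr11:104498826-104561302, plus strand, GRCm39, exon length 5901 bases), had 3442, 4176, 1885 and 2079 in R26-WT and from 2083 through 2949 to 5054 in R26-TIR1(F74G). Replicate 7 was again the highest and replicate 9 the lowest of R26-TIR1(F74G) in both. Log2 fold changes were 0.30 (SE 0.36) for Itgal, 0.29 (SE 0.26) for Itga4, 0.05 (SE 0.28) for Itga6 and 0.10 (SE 0.28) for Itgb3, each with an adjusted p of 0.99996 with DESeq2. The coefficient of variation within R26-WT was 52.0% for Itgal, 35.5% for Itga4, 35.8% for Itga6 and 38.0% for Itgb3, against a median of 16.6% over the 7160 tested genes with a mean normalized count of at least 1000.

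This pattern ran beside the length composition of the libraries. For each library a length index was computed as the median log2 deviation of the 4510 tested genes with exons of at least 5000 bases minus that of the 2126 genes under 2000 bases. The index was 0.21, 0.45, -0.57 and -0.42 in R26-WT replicates 1 to 4. In R26-TIR1(F74G) replicates 5 to 10 it was 0.15, -0.29, 0.62, 0.09, -0.33 and 0.05. The library with the highest index, R26-TIR1(F74G) replicate 7, had the highest count of Itgal, Itga4, Itga6 and Itgb3, and the library with the lowest index, R26-WT replicate 3, had the lowest of Itgal, Itga4 and Itgb3, while Itga6 was lowest in R26-TIR1(F74G) replicate 9.

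**Figure D3:**
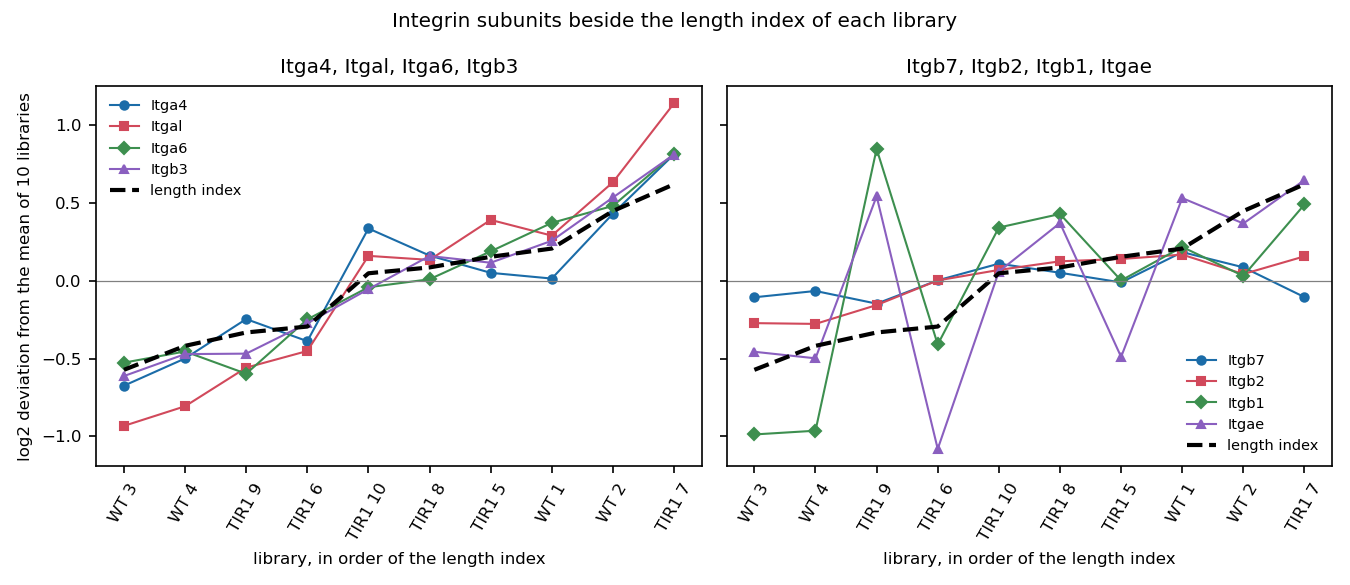
Log2 deviation of 8 integrin subunits from their mean over the 10 libraries, with libraries in order of the length index (black dashed line). Itga4, Itgal, Itga6 and Itgb3 (left) rose along the index, whereas Itgb7 and Itgb2 (right) stayed within 0.277 of their mean and Itgb1 and Itgae departed from the index in several libraries, with Itgae at -1.08 against an index of -0.29 in R26-TIR1(F74G) replicate 6 and at 0.54 against -0.33 in replicate 9.

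When each library's smooth trend on exon length was removed before the fit, the coefficient of variation within R26-WT fell from 35.5% to 14.9% for Itga4, from 35.8% to 19.4% for Itga6, from 38.0% to 25.2% for Itgb3 and from 52.0% to 38.7% for Itgal. For Itgb1 it went from 42.7% to 37.9%, and for Itgb7 from 9.39% to 11.4%. The SE of the log2 fold change fell from 0.26 to 0.14 for Itga4, whose value was then 0.22 (adjusted p = 0.865 with DESeq2). For Itga6 the value turned to -0.03 (SE 0.17). Itgb1 stayed at 0.64 (SE 0.26, adjusted p = 0.302 with DESeq2), and none of the 10 was called. With 1 surrogate variable in the fit, Itgal was 0.09 (SE 0.04, adjusted p = 0.336 with DESeq2) and Itga6 was -0.125 (SE 0.06, adjusted p = 0.345), and again none was called.

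**Figure D4:**
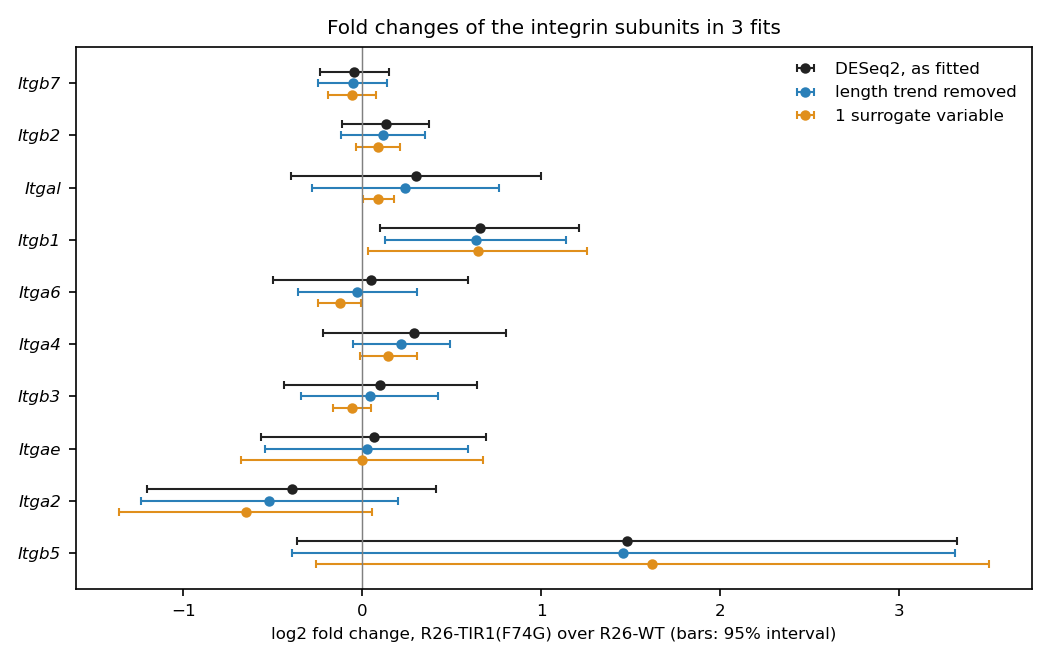
Log2 fold changes of the 10 subunits, R26-TIR1(F74G) over R26-WT, with 95% intervals from the DESeq2 fit, from the fit with the length trend removed and from the fit with 1 surrogate variable. Intervals of Itga4, Itgal, Itga6 and Itgb3 narrowed in the other fits, and in the DESeq2 fit only that of Itgb1 lay above 0 (0.10 to 1.21). With 1 surrogate variable those of Itgb1 and Itgal lay above 0 and that of Itga6 below it.

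The scarce subunits gave the widest intervals. Itga2 (chr13:114969617-115068636, minus strand, GRCm39, exon length 7133 bases) had normalized counts of 61.3, 75.8, 47.2 and 69.3 in R26-WT and from 13.4 through 44.0 to 88.0 in R26-TIR1(F74G), with replicate 7 above and replicates 5, 6 and 9 below all R26-WT libraries. Its log2 fold change was -0.39 (SE 0.41, interval in fold 0.435 to 1.33). Itgb5 (chr16:33650035-33769708, plus strand, GRCm39, exon length 3553 bases) had 15.1, 5.9, 0 and 2.54 in R26-WT and from 0 through 17.3 to 31.8 in R26-TIR1(F74G), where replicates 8, 9 and 10 lay above all R26-WT libraries. Its log2 fold change of 1.48 had an SE of 0.94 and an interval in fold of 0.776 to 9.99, which includes no change. The shallowest library, replicate 8, had the highest value, and replicate 6 and R26-WT replicate 3 had a count of 0.

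Other cells that carry integrins could enter a sort, and the gate on CD4, TCRβ and ZsGreen that the study's methods give for Treg cells is not stated for these libraries. Of 11 platelet and megakaryocyte markers 5 were at 0 in every library and 10 had a mean count under 10, and their summed level was 0.175 to 0.935 CPM in R26-WT and 0.187 to 0.595 CPM in R26-TIR1(F74G). Of 12 myeloid markers 10 had a mean count under 10, with a sum of 1.87 to 2.97 CPM in R26-WT and 2.03 to 3.22 CPM in R26-TIR1(F74G), and of the myeloid integrin subunits Itgax was at 0 in every library and Itgam had 4 to 36 raw counts, with 33.3 normalized counts in R26-TIR1(F74G) replicate 7. Itgam may be undercounted, since 68.7% of its exon bases overlap Gm49368 on the same strand. CD8 T and NK cells and B cells also carry abundant subunits. Their markers summed to 43.5 to 59.6 and 19.3 to 31.95 CPM in R26-WT and to 43.65 to 57.1 and 17.15 to 33.9 CPM in R26-TIR1(F74G). Of the 10 CD8 and NK markers Ncr1, Klre1 and Klra8 were at 0 in every library, Cd8a had 0 to 41 raw counts and Cd8b1 had 756 to 2226. Of the 7 tested, 3 had a positive and 4 a negative log2 fold change. Among them 1 was called higher, where 1.74% of all tested genes were called with DESeq2 and 0.373% with edgeR. It was Eomes (log2 fold change 1.47, SE 0.23, adjusted p = 4.54e-08 with DESeq2 and 0.0161 with edgeR). Of the 8 B cell markers Ms4a1 had 0 to 4 raw counts and Cd79b 370 to 1341. Of the 3 tested, 1 was called higher with DESeq2, against the same 1.74% of all tested genes. It was Cd22 (log2 fold change 2.68, SE 0.63, adjusted p = 0.00266, and 0.230 with edgeR). Its normalized counts were uneven in R26-TIR1(F74G), at 77.9 ± 95.9 (mean ± SD). Cd79a (-0.24, SE 0.18) and Cd79b (-0.33, SE 0.20) went the other way and were not called. Whether such cells had a part in the subunit values was not tested. The 10 subunits together held 2944 to 4227 CPM in R26-WT and 3407 to 4526 CPM in R26-TIR1(F74G).

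Of the other 16 integrin subunit genes 10 were tested. The highest per-length levels among them were those of Itgav, the α partner of Itgb3 and Itgb5, at 10.3 ± 4.39 TPM in R26-WT and 10.7 ± 4.78 TPM in R26-TIR1(F74G), and of Itga5, the fibronectin receptor α chain, at 7.13 ± 3.51 and 6.86 ± 2.51 TPM. None was called with DESeq2 or edgeR, 1 had an unadjusted p below 0.05 with DESeq2, 5 had a positive and 5 a negative log2 fold change, and the median was -0.05. Itga7, a laminin receptor α chain known from muscle, came closest. Its normalized counts were 252, 309, 163 and 125 in R26-WT replicates 1 to 4 and from 262 through 364 to 644 in R26-TIR1(F74G), where 5 of 6 libraries lay above all R26-WT libraries. The log2 fold change was 0.94 (SE 0.29), with an adjusted p of 0.0688 with DESeq2 and 0.327 with edgeR. Itga7 passed the threshold with the length trend removed (0.88, adjusted p = 0.00311 with DESeq2) and without R26-WT replicate 2 (1.18, adjusted p = 0.00765) or R26-TIR1(F74G) replicate 6 (1.04, adjusted p = 0.0276), but not with the length trend removed in edgeR (0.88, adjusted p = 0.091) or with limma voom (1.02, adjusted p = 0.159). Itga2b, the α chain of the platelet fibrinogen receptor, had -0.40 (SE 0.32, adjusted p = 0.99996 with DESeq2).

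Of the genes that switch integrins on from within the cell, 13 of 15 were tested and none was called with DESeq2 or edgeR (2 with an unadjusted p below 0.05), with 8 positive and 5 negative values and a median of 0.06. Rasgrp2, the exchange factor that loads Rap1 with GTP, had normalized counts of 10456 to 12260 in R26-WT and 12208 to 14536 in R26-TIR1(F74G), with 5 of 6 libraries above all R26-WT libraries. Its log2 fold change was 0.22 (SE 0.09, adjusted p = 0.432 with DESeq2). Apbb1ip (RIAM), which links Rap1 to talin, had 4765 to 5215 and 4303 to 4785, with 5 of 6 libraries below all R26-WT libraries, and a log2 fold change of -0.15 (SE 0.07, adjusted p = 0.620 with DESeq2). Of the adhesion complex genes 11 of 13 were tested and none was called with DESeq2 or edgeR (0 with an unadjusted p below 0.05, 6 positive, 5 negative, median 0.07). The pair with the smallest p-values in it were Lims1, an adaptor of integrin-linked kinase (0.14, SE 0.11), and the scaffold Pxn (0.25, SE 0.23).

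All 10 genes of the list of integrin inhibitors were tested and none was called with DESeq2 or edgeR (0 with an unadjusted p below 0.05, 7 positive, 3 negative, median 0.05). Nisch, which binds α5 integrin, had 0.12 (SE 0.11), and Flna, which competes with talin for β tails, had 0.36 (SE 0.57). For Flna 1 library, R26-TIR1(F74G) replicate 7, reached 50701 normalized counts. The rest of that group had 10841 to 21016, within the R26-WT range of 9339 to 26832. Of the ligand genes only 3 of 10 were expressed enough to be tested, and none was called with DESeq2 or edgeR or had an unadjusted p below 0.05. Cdh1, which encodes the Itgae ligand E-cadherin, had 1.01 (SE 0.64, adjusted p = 0.99996 with DESeq2) at 2.16 to 87.0 normalized counts, and Icam1, a ligand of LFA-1, had 0.07 (SE 0.11).

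All 8 genes of membrane proteins that associate with integrins, mostly tetraspanins, had a negative log2 fold change, with a median of -0.17. None was called with DESeq2 or edgeR, and 1 had an unadjusted p below 0.05. Their summed level ran against the length index, at 3290, 2963, 3987 and 3948 CPM in R26-WT replicates 1 to 4 and from 2578 CPM in replicate 7 to 3865 CPM in replicate 9 of R26-TIR1(F74G). With the length trend removed all 8 values were still negative, and with 1 surrogate variable that of Cd82 was 0.03. Cd151, a tetraspanin partner of laminin-binding integrins, had 192 to 258 normalized counts in R26-WT and 154 to 216 in R26-TIR1(F74G), and a log2 fold change of -0.32 (SE 0.15, adjusted p = 0.588 with DESeq2). For Cd81 it was -0.26 (SE 0.16, adjusted p = 0.999 with DESeq2), and in both genes 4 of 6 R26-TIR1(F74G) libraries lay below all R26-WT libraries.

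The genes of TGF-β signalling and its partners, which regulate Itgae in T cells, were all tested (13 of 13), with none called by DESeq2 or edgeR, 2 with an unadjusted p below 0.05, 8 positive and 5 negative values and a median of 0.03. In 1 of the 13, Runx3, a transcription factor that acts on Itgae in T cells, the groups did not overlap. None of the genes tested in the other integrin lists (10, 10, 13, 11, 10, 3 and 8) had groups that did not overlap. Over all tested genes the share was 2.37%. The normalized counts of Runx3 were 1648, 1665, 1632 and 1690 in R26-WT replicates 1 to 4 and from 1731 through 1969 to 2264 in R26-TIR1(F74G). The log2 fold change was 0.26 (SE 0.10, unadjusted p = 0.00816, adjusted p = 0.248 with DESeq2). Prdm1, which encodes Blimp-1, had 0.50 (SE 0.23, adjusted p = 0.592 with DESeq2), with 5 of 6 R26-TIR1(F74G) libraries above all R26-WT libraries.

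**Figure D5:**
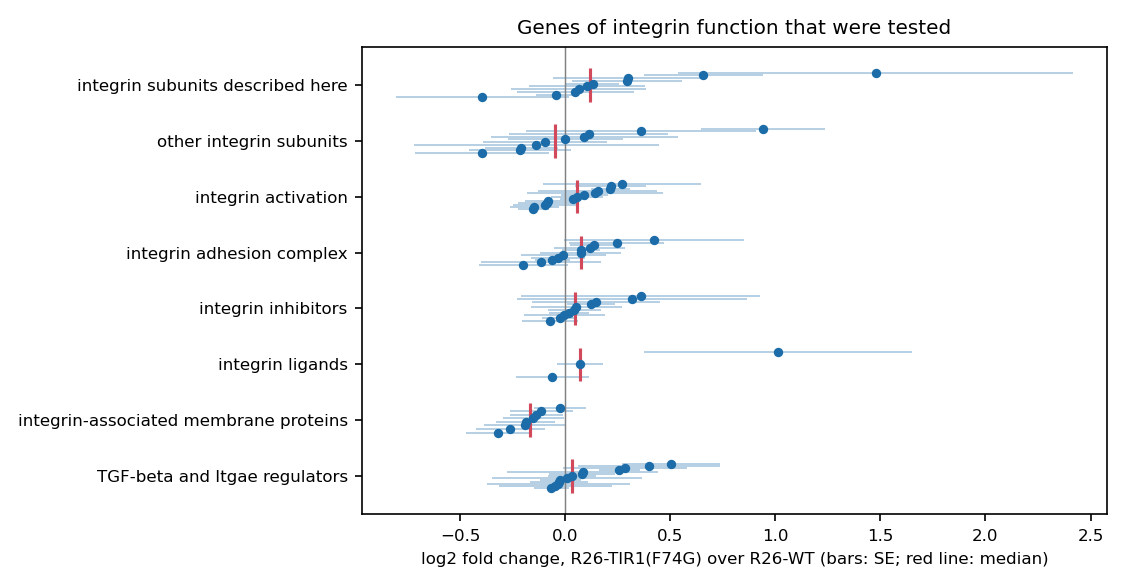
Log2 fold changes (R26-TIR1(F74G) over R26-WT, bars of 1 SE) of every tested gene of 8 integrin lists, with a red line at the median of each. Medians lay between -0.169 for the associated membrane proteins and 0.116 for the 10 subunits described here, and no gene of the 8 lists was called with DESeq2 or edgeR, although 1 was with the length trend removed in DESeq2 (Itga7) and several were with 1 surrogate variable.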

How the data were processed

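Treg cell RNA of 10 libraries was amplified with SMART-Seq v4 from 1 to 2 ng of RNA, and the labels name no molecular identifiers, so counting error is a lower limit. The authors deposited raw counts per gene, made per the file headers with featureCounts 2.1.1 (paired reads, mapping quality at least 30, no strand option) on GENCODE M30 exons of GRCm39. The study's methods name STAR and the labels list Bowtie2, featureCounts and DESeq2. The library with the fewest counts had 24158699 and the one with the most 54795718, and all 37 mitochondrial rows were 0. Replicate pairs within a group differed by more than counting noise (chi-square per degree of freedom 9.45 to 215 over 21 pairs). No label says that libraries came from separate mice, so p-values measure the spread between these libraries.

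Counts were tested with DESeq2 1.42.0 (Wald test, design of genotype, a minimum mean count of 10, Benjamini-Hochberg adjustment over all 16363 tested genes, threshold 0.05), after the study's methods, with edgeR 4.0.16 (quasi-likelihood test) and limma 3.58.1 (voom) as alternatives in R 4.3.3. Intervals are 95% and from the SE. Other settings were TMM scaling, no filter, a mean count of at least 50, removal of the length trend (loess, span 0.5), 1 surrogate variable (sva 3.50.0) and omission of each library. edgeR with the length trend removed, levels by the canonical transcript length of GENCODE M39, and the shares and partner ratios were chosen after seeing the data. The subunits and gene lists were chosen with earlier results of these data known. Named genes were the 10 subunits, the 2 genes of each list with the smallest unadjusted p where none was called, and the 3 genes most like Itgae. Promoter sequences are from RefSeq (GRCm38.p6), in which 5 of the 10 subunits were matched.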

Additional observations from a re-analysis of the deposited data

Results flagged for a closer look

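Values were examined in 56 groups of 4 or 6 libraries (each subunit, the total counts and each gene list summed as CPM), and a library was singled out where its gap to the nearest other library, divided by the range of the group, exceeded Dixon's 95% critical value. Chance gives about 1 in 20, or 2.8 of the 56, and 5 were found. None of the 10 integrin subunits was among them. R26-TIR1(F74G) replicate 7 was the highest for the other integrin subunits, at 114 CPM against 50.3 to 70.5 CPM in the other 5 libraries of its group, and for the integrin inhibitors, at 3781 CPM against 2786 to 2994 CPM, and Flna was 50701 normalized counts in it. R26-TIR1(F74G) replicate 9 was the highest for the activated Treg markers, at 659 CPM against 405 to 471 CPM. R26-WT replicate 1 was the highest for the resting T cell markers, at 9231 CPM against 8783 to 8818 CPM. R26-TIR1(F74G) replicate 8, whose total count was the lowest, was the highest for the erythroid markers, at 0.911 CPM against 0.277 to 0.466 CPM.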

How the results depend on the processing

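None of the 10 subunits was called under any of the alternatives that were run, and Itgb5 was below the filter with a mean count of at least 50 and when R26-TIR1(F74G) replicate 10 was omitted. Of 178 log2 fold changes of the subunits under alternatives, 162 kept their sign. With 1 surrogate variable the sign turned for Itgae (-0.000948), Itga6 (-0.125) and Itgb3 (-0.0565), and with the length trend removed for Itga6 (-0.0269 with DESeq2 and -0.0269 with edgeR). Omission of 1 library gave -0.0811 to 0.263 for Itgae, -0.0843 to 0.0122 for Itgb7, 0.122 to 0.533 for Itga4, 0.49 to 0.893 for Itgb1, 0.0286 to 0.623 for Itgal, 0.0707 to 0.221 for Itgb2, -0.155 to 0.232 for Itga6, -0.0926 to 0.332 for Itgb3, -0.668 to -0.197 for Itga2 and, over 9 of the 10 omissions, 1.06 to 2.57 for Itgb5. The sign turned without R26-WT replicate 3 or 4 or R26-TIR1(F74G) replicate 7 for Itgae, Itga6 and Itgb3, without R26-TIR1(F74G) replicate 9 for Itgae, and without R26-WT replicate 1 for Itgb7. The cause was not tested.

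Genes called over all tested numbered 284 with DESeq2, 61 with edgeR, 80 with limma, 743 with 1 surrogate variable, 124 with edgeR and the length trend removed, and 187 to 346 when 1 library was omitted (187 without R26-WT replicate 4). With the length trend removed 1 of the other subunits was called (Itga7), as with 1 surrogate variable (1) and within the omissions (0 to 1). With 1 surrogate variable 2 activation genes (Rasgrp2 and Apbb1ip), 1 adhesion complex gene (Lims1), 1 associated membrane protein (Cd81) and 3 regulators (Tgfbr1, Skil and Runx3) were also called; these were named after their values were seen. With canonical transcript lengths the per-length level was 1360 TPM for Itgb7 in R26-WT and 1360 in R26-TIR1(F74G), 144 for Itgb1 and 785 for Itgb2 in R26-TIR1(F74G), and 125 and 134 for Itga6 in R26-WT and R26-TIR1(F74G), and the other 14 levels moved by less than 1 SD. Omission of 1 library gave differences of -0.000135 to 0.254 for Itgae per 100 of Itgb7 and -0.483 to 5.04 for Itgal per 100 of Itgb2, both negative without R26-TIR1(F74G) replicate 7. No paired analysis was possible because R26-WT replicates are numbered 1 to 4 and R26-TIR1(F74G) replicates 5 to 10. Counts of Itga2 and Itgb5 were low, at 13 to 95 and 0 to 30 raw counts per library.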
